A study of Mus musculus with 12 samples.

Results

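Nr4a1, Nr4a2 and Nr4a3 are the 3 members of the Nr4a family of orphan nuclear receptors. They were taken by name from the 55471 gene IDs of the count table. The family was chosen by its measured levels in these same 12 libraries, where Nr4a1 and Nr4a2 were known to lie on opposite sides of the Control level. That direction against Control is therefore given here as a description, without a test. All 3 genes were among the 19492 genes kept by the filter on low counts.

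The Nr4a receptors have no known physiological ligand that they require, and their ligand pocket is filled by bulky side chains, so that their activity depends largely on how much of each protein a cell makes. They bind the NGFI-B response element as monomers, and Nr4a1 and Nr4a2 also pair with retinoid X receptors. In hippocampal neurons all members are immediate early genes. Synaptic activity and cAMP signalling induce them through CREB, and they are known for their part in long-term memory and late potentiation. Nr4a1 is also called Nur77 or NGFI-B, Nr4a2 is called Nurr1 and is required for midbrain dopamine neurons, and Nr4a3 is called Nor1.

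RNA came from ventral CA1 in acute horizontal slices of wild-type male C57BL/6J mice aged 5 to 7 weeks, and each of the 4 groups had 3 libraries. STET slices were given strong tetanization, which consists of 3 trains of 100 pulses at 100 Hz and evokes late long-term potentiation. STET_S100 slices were given the same trains and stimulation of the basolateral amygdala at 100 Hz, and STET_S200 slices the trains and amygdala stimulation labelled 200 Hz, for which the bracketed detail of the label names pulses at 100 Hz. Control slices carried the electrodes and received basal stimulation alone. All slices were 400 µm thick, rested for at least 3 h and were frozen 30 min after the stimulation, and about 1 mm2 of tissue was taken around the electrodes. Each library pooled 6 slices. Every mouse contributed 4 slices, with a single slice to each group, so that the groups share mice, while the labels do not tie replicate numbers to mice. Spread between libraries is thus the spread between pools of slices. In such bulk tissue, fewer expressing cells and less RNA per cell cannot be told apart.

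Total counts were 36.3 to 52.8 M per library. CA1 pyramidal markers were present throughout, with Fibcd1 at 290 to 437 CPM, the read count scaled to a common library size, and Wfs1 at 76.0 to 99.2 CPM. A set of 5 libraries (STET replicate 3, STET_S100 replicate 1, STET_S200 replicates 2 and 3, and Control replicate 3) held RNA of tissues outside the brain, with the adipocyte gene Fabp4 at 7.08 to 8.46 CPM against 0.0479 to 0.275 CPM in the other 7. Choroid plexus RNA was low in every STET_S200 library and in STET_S100 replicate 3. The choroid gene Ttr had 254, 2243 and 434 CPM in STET, 1841, 2798 and 12.2 CPM in STET_S100, and 5.14, 1.73 and 40.6 CPM in STET_S200 libraries, against 233, 1167 and 183 CPM in Control libraries. Of 10 choroid plexus and ependyma markers, 7 were lower in every STET_S200 library than in every Control library, where the list's median log2 fold change was -2.06. Against every STET library, 7 were lower as well, and against every STET_S100 library 2 were. Low choroid RNA and the STET_S200 treatment therefore overlap in these libraries.

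The promoters of the family are shown because the cAMP response element in its short form, TGACG, is the letter pattern to which CREB-mediated induction of these genes is ascribed, and because the members' levels went different ways below. Each sequence is the RefSeq window of GRCm38.p6 from 250 bases before to 50 bases after a RefSeq start of the gene, written in the gene's direction. That start need not be the outermost start in the GENCODE spans given further on: for Nr4a1 the whole window lies inside the span. Capitals mark TGACG or its reverse complement CGTCA. The Nr4a1 window is chr15:101266596-101266895 on the plus strand, the Nr4a2 window is chr2:57123954-57124253 on the minus strand, and the Nr4a3 window is chr4:48045055-48045354 on the plus strand.
Nr4a1: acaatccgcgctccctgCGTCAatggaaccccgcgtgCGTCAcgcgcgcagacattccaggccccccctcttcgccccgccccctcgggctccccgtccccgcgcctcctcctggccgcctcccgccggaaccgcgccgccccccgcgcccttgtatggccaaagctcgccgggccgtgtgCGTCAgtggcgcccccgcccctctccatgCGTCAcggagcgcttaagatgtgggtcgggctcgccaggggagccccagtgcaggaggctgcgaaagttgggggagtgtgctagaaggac
Nr4a2: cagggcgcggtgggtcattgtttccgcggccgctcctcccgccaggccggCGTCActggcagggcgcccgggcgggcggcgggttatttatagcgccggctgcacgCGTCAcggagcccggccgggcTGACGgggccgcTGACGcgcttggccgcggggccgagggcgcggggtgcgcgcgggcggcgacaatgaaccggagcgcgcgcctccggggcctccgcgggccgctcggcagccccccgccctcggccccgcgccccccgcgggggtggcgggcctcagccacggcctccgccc
Nr4a3: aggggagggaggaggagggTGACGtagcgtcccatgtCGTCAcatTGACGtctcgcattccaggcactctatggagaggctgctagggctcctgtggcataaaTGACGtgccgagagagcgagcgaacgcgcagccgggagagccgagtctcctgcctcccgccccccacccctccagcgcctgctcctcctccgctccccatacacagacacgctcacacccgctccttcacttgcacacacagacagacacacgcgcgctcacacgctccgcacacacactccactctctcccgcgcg

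Each window holds 4 matches to TGACG on either strand. Of all 32851 promoter windows of the same length, 20.8% hold at least 1 match and 0.231%, or 76 windows, hold 4 or more. The matches start at -233, -213, -69 and -40 bases from the start site in Nr4a1, at -200, -144, -123 and -111 in Nr4a2, and at -231, -213, -205 and -147 in Nr4a3. Of the 3, the Nr4a1 window alone has matches closer than 111 bases to the start. The palindromic form TGACGTCA, which contains TGACG on both strands, was in none of the 3 windows and in 1.79% of all windows. The NGFI-B response element AAAGGTCA, to which the family's own proteins bind, was in none of the 3 and in 1.51% of all, and the CArG box, the site of serum response factor, was in none of the 3 and in 1.63% of all. TATAAA, sought on either strand, was found once, in Nr4a2 as its reverse complement TTTATA, and in 13.6% of all windows. The windows were 72.3%, 81.7% and 64.7% G and C in Nr4a1, Nr4a2 and Nr4a3, against a median of 52.7% over all windows. A match of letters is a description of the window and not a site shown to be used.

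In the GENCODE M21 annotation of GRCm38, Nr4a1 (ENSMUSG00000023034) spans chr15:101254269-101274795 on the plus strand, Nr4a2 (ENSMUSG00000026826) spans chr2:57106830-57124003 on the minus strand, and Nr4a3 (ENSMUSG00000028341) spans chr4:48045153-48086447 on the plus strand. All are protein coding and no other annotated gene overlaps any of them. Their exons cover 3509, 4059 and 5987 bases. Per kb of exon, Nr4a1 was the most abundant member, at 43.0 ± 9.76 CPM per kb (SD, n = 12 libraries). Nr4a2 stood at 24.1 ± 2.07 and Nr4a3 at 23.3 ± 2.9 CPM per kb (SD, n = 12 each), ranges that overlap. The lowest Nr4a1 library, at 31.1 CPM per kb, was above the highest of Nr4a3, at 30.3, and of Nr4a2, at 27.5. All were expressed at basal stimulation as well, with 35.5 ± 5.72, 26.5 ± 1.04 and 25.7 ± 4.01 CPM per kb in Control for Nr4a1, Nr4a2 and Nr4a3 (SD, n = 3 each).

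Nr4a1 was the member whose level was higher after stimulation. It had 167.8, 183.8 and 151.5 CPM in STET libraries, against 109.0, 147.2 and 117.6 CPM in Control libraries. Every STET library was above every Control library. In STET_S100 libraries it had 112.3, 225.9 and 168.0 CPM, which includes both the highest library of the study and a value between the lowest pair of Control libraries. In STET_S200 libraries it had 142.9, 118.8 and 163.7 CPM, again overlapping Control. In all, 7 of 9 stimulated libraries were above the Control mean. In order of mean level, STET_S100 had 169 ± 56.8, STET 168 ± 16.1, STET_S200 142 ± 22.5 and Control 125 ± 20.1 CPM (SD, n = 3 each), and neighbours in that order lay within their spread.

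The log2 fold change of Nr4a1 against Control was 0.43 ± 0.25 in STET, 0.44 ± 0.25 in STET_S100 and 0.19 ± 0.25 in STET_S200 (SE of the edgeR fit). For the mean of the 3 stimulated groups it was 0.35 ± 0.21, or 1.28-fold. The STET_S100 value rested on single libraries, at 0.17 without STET_S100 replicate 2 and 0.66 without STET_S100 replicate 1, and the STET_S200 value was 0.07 without STET_S200 replicate 3, 0.30 without STET_S200 replicate 2, 0.10 without Control replicate 1 and 0.32 without Control replicate 2. With a choroid plexus score as covariate the STET_S200 value was 0.37, and with a model term for the 5 libraries with peripheral-tissue RNA 0.29. Without the 5 libraries with peripheral-tissue RNA the 3 folds were 0.46, 0.62 and 0.16.

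**Figure D1:**
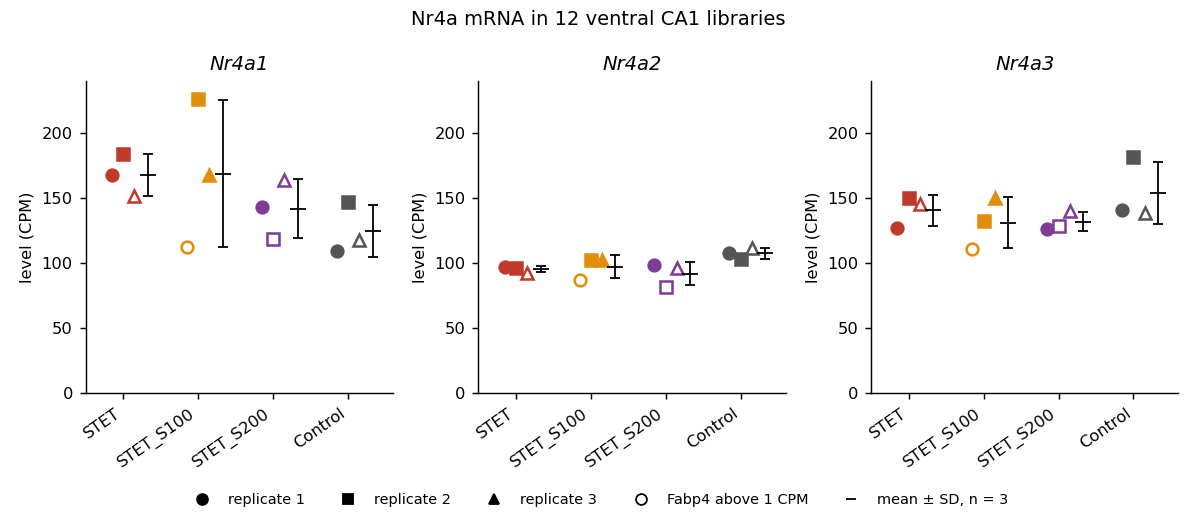
Levels of Nr4a1, Nr4a2 and Nr4a3 in CPM (y axis, from 0) by group (x axis); each symbol is 1 library, its shape gives the replicate number, open symbols are the 5 libraries with Fabp4 above 1 CPM, and the bars give the mean ± SD of 3 libraries. All 9 stimulated libraries of Nr4a2, at 81.4 to 102 CPM, lie below the 3 Control libraries at 103 to 112 CPM, while Nr4a1 spreads over 112 to 226 CPM in stimulated and 109 to 147 CPM in Control libraries.

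Nr4a2 lay on the other side of Control. Its levels were 97.2, 96.11 and 92.52 CPM in STET, 87.1, 102.0 and 102.4 CPM in STET_S100, and 98.03, 81.43 and 95.76 CPM in STET_S200 libraries, against 107.8, 103.2 and 111.7 CPM in Control libraries. All 9 stimulated libraries were below all 3 Control libraries, the closest pair being 102.4 and 103.2 CPM. By mean level, from low to high, the order was STET_S200 at 91.7 ± 9.0, STET at 95.3 ± 2.45, STET_S100 at 97.2 ± 8.7 and Control at 108 ± 4.23 CPM (SD, n = 3 each), and the 3 stimulated groups lay within each other's spread.

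Against Control the log2 fold change of Nr4a2 was -0.18 ± 0.07 in STET, -0.15 ± 0.07 in STET_S100, -0.23 ± 0.07 in STET_S200 and -0.18 ± 0.06 for the mean of the 3 (SE), a fold of 0.88. The STET_S100 value was -0.07 without STET_S100 replicate 1, and the STET_S200 value was -0.15 without STET_S200 replicate 2. The difference was small. Among stimulated libraries those with peripheral-tissue RNA had less Nr4a2, whereas in Control the library with such RNA had the most. The 4 stimulated libraries with such RNA had 81.4 to 95.8 CPM of Nr4a2 and the 5 without had 96.1 to 102 CPM, against 112 CPM in the Control library with it and 103 to 108 CPM in the Control libraries without. A fit without these libraries thus also loses the highest Control library. Over the 7 libraries without peripheral-tissue RNA the log2 fold change was -0.12 in STET, -0.05 in STET_S100, -0.11 in STET_S200 and -0.09 for the mean of the 3. With a model term for the 5 libraries it was -0.18 for the mean, as in the full fit.

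Nr4a3 was also lower on average after stimulation, with groups that overlapped. It had 126.9, 149.6 and 145.2 CPM in STET, 111.1, 131.9 and 150.1 CPM in STET_S100, and 126.4, 128.7 and 140.0 CPM in STET_S200 libraries, against 141.1, 181.4 and 138.8 CPM in Control libraries. None of the 9 stimulated libraries reached the Control mean, which Control replicate 2 raised. From low to high, the means were 131 ± 19.5 in STET_S100, 132 ± 7.27 in STET_S200, 141 ± 12 in STET and, in Control, 154 ± 24.0 CPM (SD, n = 3 each), and neighbours in that order lay within their spread.

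The log2 fold change of Nr4a3 against Control was -0.13 ± 0.13 in STET, -0.23 ± 0.13 in STET_S100, -0.22 ± 0.13 in STET_S200 and -0.19 ± 0.11 for the mean of the 3 (SE). These values moved with single libraries. Without Control replicate 2 they were 0.01 in STET, -0.10 in STET_S100, -0.09 in STET_S200 and -0.06 for the mean. The STET value was -0.06 without STET replicate 1 and -0.20 without Control replicate 3, and the STET_S100 value was -0.12 without STET_S100 replicate 1. Over the 7 libraries without peripheral-tissue RNA they were -0.22 in STET, -0.19 in STET_S100, -0.35 in STET_S200 and -0.25 for the mean. Control replicate 2 was also the highest Control library of Nr4a1 and the lowest of Nr4a2.

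**Figure D2:**
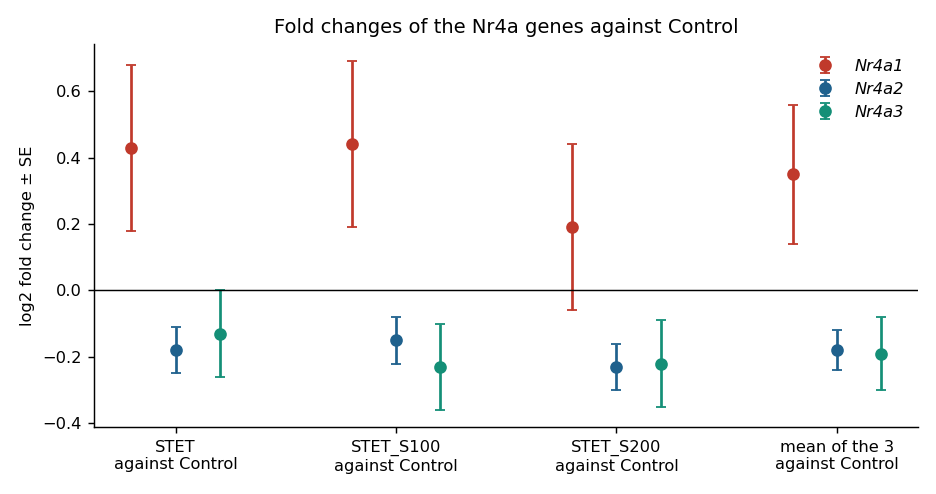
Log2 fold change ± SE against Control (y axis) of Nr4a1, Nr4a2 and Nr4a3 for STET, STET_S100, STET_S200 and the mean of these 3 groups (x axis), from the edgeR fit of 12 libraries. Nr4a1 is above 0 in each comparison, at 0.19 to 0.44, and Nr4a2 and Nr4a3 are below 0, at -0.13 to -0.23; all 4 comparisons share the same 3 Control libraries.

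As background to these descriptions, edgeR's quasi-likelihood test with Benjamini-Hochberg adjustment over 19492 genes called 0% of genes at an adjusted p of 0.05 in each comparison with Control. At an unadjusted p under 0.05 it counted 683 genes in STET, 1006 in STET_S100, 1154 in STET_S200 and 1066 for the mean of the 3. DESeq2 called 1, 3, 4 and 7 genes in those comparisons and limma-voom 0 in each. Groups did not overlap for 4.69% of genes higher and 4.2% of genes lower in STET than in Control, 5.19% and 4.93% in STET_S100, and 5.73% and 5.28% in STET_S200. All 9 stimulated libraries lay above all 3 Control libraries in 0.549% of genes and below them in 0.441%, and Nr4a2 was among the second set. The Nr4a members were chosen for these contrasts, so nothing is read from their place in that background. Other activity genes give the scale: the log2 fold change for the stimulated mean was 1.38 ± 0.29 for Arc, 1.59 ± 0.36 for Npas4, 0.69 ± 0.2 for Fos and 0.42 ± 0.17 for Egr1 (SE).

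Ratios between members within 1 library do not depend on how libraries are scaled. The log2 ratio of Nr4a1 to Nr4a3 counts was 0.40, 0.30 and 0.06 in STET, 0.02, 0.78 and 0.16 in STET_S100, and 0.18, -0.12 and 0.23 in STET_S200 libraries, against -0.37, -0.30 and -0.24 in Control libraries. All 9 stimulated libraries were above all 3 Control libraries, although neither gene alone separated them. Exon length differs between the genes and is not removed here, so only the difference between libraries can be read. The ratio of Nr4a1 to Nr4a2 was 0.79, 0.94 and 0.71 in STET, 0.37, 1.15 and 0.72 in STET_S100, and 0.54, 0.54 and 0.77 in STET_S200, against 0.02, 0.51 and 0.07 in Control. Here STET_S100 replicate 1 lay within the Control range, below Control replicate 2. The ratio of Nr4a2 to Nr4a3 was -0.56 ± 0.15 in STET, -0.42 ± 0.11 in STET_S100, -0.52 ± 0.15 in STET_S200 and -0.50 ± 0.27 in Control (mean ± SD, n = 3 each), and the groups overlapped. These ratios rest on the same contrast that chose the genes and were not tested. How often ratios of other genes separate the libraries in this way was not counted, so nothing is read from the separation.

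**Figure D3:**
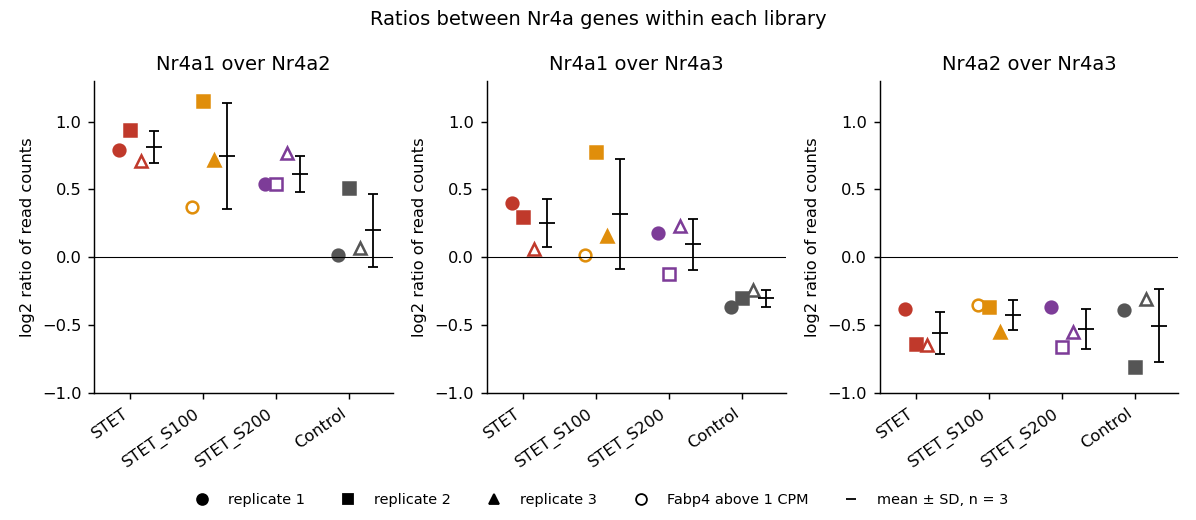
Log2 ratio of read counts between members within each library (y axis) by group (x axis); symbols are libraries as shaped by replicate number, open symbols have Fabp4 above 1 CPM, and bars are the mean ± SD of 3 libraries. For Nr4a1 over Nr4a3 all stimulated libraries, at -0.12 to 0.78, lie above the Control libraries at -0.37 to -0.24, whereas Nr4a2 over Nr4a3 overlaps throughout.

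Whether stimulation of the amygdala shifted the family beyond tetanization alone was tested, since these contrasts did not choose the genes. No gene in the whole table passed at an adjusted p of 0.05 (edgeR, 0% called in each), with 615, 888 and 1014 genes at an unadjusted p under 0.05 for STET_S100 against STET, STET_S200 against STET and STET_S200 against STET_S100. DESeq2 called 1, 16 and 5 genes and limma-voom 0 in each. No Nr4a gene separated any of these pairs of groups. Over all genes, groups did not overlap for 4.73% of genes higher and 4.87% lower in STET_S100 than in STET, 6.22% and 5.76% in STET_S200 than in STET, and 4.57% and 4.77% in STET_S200 than in STET_S100. In STET_S100 against STET the log2 fold changes were 0.01 ± 0.25 for Nr4a1, 0.03 ± 0.07 for Nr4a2 and -0.10 ± 0.13 for Nr4a3 (SE; edgeR adjusted p = 1 each).

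In STET_S200 against STET they were -0.24 ± 0.25 for Nr4a1, -0.06 ± 0.07 for Nr4a2 and -0.09 ± 0.13 for Nr4a3 (SE; edgeR adjusted p = 0.95, 0.957 and 0.971). All 3 genes averaged lower with the label of 200 Hz than after tetanization alone, each by no more than about its standard error. In STET_S200 against STET_S100 they were -0.25 ± 0.25 for Nr4a1, -0.08 ± 0.07 for Nr4a2 and 0.01 ± 0.13 for Nr4a3 (SE; edgeR adjusted p = 0.984, 0.983 and 0.998). With a choroid plexus score as covariate, Nr4a1 had -0.03 ± 0.33 in STET_S200 against STET and -0.04 ± 0.32 in STET_S200 against STET_S100 (SE), and the part of choroid plexus RNA cannot be told apart from that of the treatment. The standard errors set what could be seen: that of Nr4a2 was 0.07, and that of Nr4a1 was 0.25. The biological coefficient of variation of Nr4a1 was 20.8%, against 11.3% for Nr4a3 and 6.23% for Nr4a2. For Nr4a1 the STET_S100 group was the most variable, with a coefficient of variation of 33.6%, against 9.62% in STET, 15.8% in STET_S200 and 16.1% in Control. The standard error of Nr4a1 for STET against Control, 0.25 in the fit of all groups, was 0.14 with these groups alone and 0.18 without STET_S100 replicate 1. Missing the threshold does not show that the groups were alike.

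Among libraries of the same group, Nr4a1 tended to deviate with each of the other members. After removal of group means, log2 CPM of Nr4a1 and Nr4a2 correlated with r = 0.65 and rho = 0.55 (n = 12, exact permutation within groups, two-sided p = 0.133 and 0.156, adjusted over 3 pairs 0.2 and 0.234), and they lay on the same side of their group mean in 9 of 12 libraries. For Nr4a1 and Nr4a3 r was 0.63 and rho 0.67 (exact permutation p = 0.117 and 0.0617, adjusted 0.2 and 0.185), also with 9 of 12 libraries on the same side. For Nr4a2 and Nr4a3 r was 0.21 and rho 0.13 (exact permutation p = 0.579 and 0.702, unchanged by adjustment). No pair passed. STET_S100 replicate 1, a library with peripheral-tissue RNA and the lowest of its group for every member, carried part of these values, since without it r was 0.34, 0.37 and -0.24 for the 3 pairs in the same order. Without the 2 libraries farthest from the median of the gene on the x axis, r was 0.42, 0.64 and -0.27. Among libraries without peripheral-tissue RNA, 6 had a partner of their own group. Over these, r was -0.78 for Nr4a1 and Nr4a2 and 0.38 for Nr4a1 and Nr4a3. For Nr4a2 and Nr4a3 it was -0.83 (adjusted exact permutation p = 0.75 for each of the 3). These libraries formed 1 pair in each of 3 groups, so deviations within a pair mirror each other and r rests on 3 differences. So few pairs allow no arrangement of libraries to reach the threshold, whatever the levels. The sign of r for Nr4a1 and Nr4a2 differed between the 12 libraries and these 6, but nothing is read from that difference.

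The genes whose levels followed each member most closely over all 12 libraries were named by rank of Pearson r among 13387 genes with a mean log2 CPM of at least 1. These correlations are descriptions, since libraries share mice, scaling and group differences. The highest and lowest of 13387 values from 12 libraries are also extreme in part by selection, and no scale for that was computed. The nearest genes to Nr4a1 were Egr1 (r = 0.93) and Fosb (0.93), immediate early transcription factors, the MAP kinase phosphatase Dusp1 (0.91), the antiproliferative protein Tob1 (0.91) and Egr4 (0.90). Within groups, with the group means removed, r of these 5 genes with Nr4a1 was 0.89 to 0.93. In the 7 libraries with no peripheral-tissue RNA r was 0.91 to 0.97. The genes most opposed to Nr4a1 were Upf2 (-0.83), a factor of nonsense-mediated decay, Zfp13 (-0.80) and Spsb3 (-0.79).

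Nr4a2 followed none of the early genes as closely. Its nearest genes were Asap1 (r = 0.87), an Arf GTPase-activating protein, the kinase Stk35 (0.85), the zinc finger factor Hivep1 (0.85), the translation initiation factor Eif4g3 (0.84) and Cdk2ap1 (0.84). Within groups, with the group means removed, these r were 0.79 to 0.86, and in the 7 libraries with no peripheral-tissue RNA they were 0.37 to 0.58. The most opposed genes were Bnip2 (-0.86), Aspdh (-0.85) and the F-box gene Fbxo46 (-0.85), whose r over the 7 libraries were -0.09, -0.47 and -0.38. Nr4a3 had as its nearest genes Wrn (0.87), a RecQ helicase, Dop1b (0.86), the FERM domain gene Frmd6 (0.85), Tdrp (0.83) and Gapvd1 (0.82), a regulator of endocytic Rab proteins. The most opposed to Nr4a3 were the cyclophilin Ppie (-0.89), the Notch-responsive repressor Hes1 (-0.86) and Zkscan14 (-0.86). Over the 7 libraries the 5 nearest genes of Nr4a3 had r of 0.81 to 0.97, and within groups 0.80 to 0.86. The members themselves were not near neighbours over all 12 libraries, with r of 0.13 for Nr4a1 and Nr4a2, 0.24 for Nr4a1 and Nr4a3, and 0.46 for Nr4a2 and Nr4a3.

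The rapid immediate early genes are the class to which the family belongs. Their r over all 12 libraries includes the differences between groups, and so the directions against Control for which the family was chosen. Of 28 such genes outside the family, 27 had a positive r with Nr4a1, with a median of 0.76. With Nr4a2 10 were positive and the median was -0.11, and with Nr4a3 16 were positive and the median was 0.05, beside medians of -0.01 to 0.01 over all 13387 genes. The exception for Nr4a1 was Klf10 (r = -0.15), which was also the lowest of the list for Nr4a2 (-0.56) and Nr4a3 (-0.57). With group means removed, the median r of the list was 0.70 with Nr4a1, 0.40 with Nr4a2 and 0.39 with Nr4a3, with 27, 25 and 26 genes positive. The difference between members was not tested. Over the 7 libraries without peripheral-tissue RNA, group means left in, the medians were 0.80, -0.56 and -0.39.

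**Figure D4:**
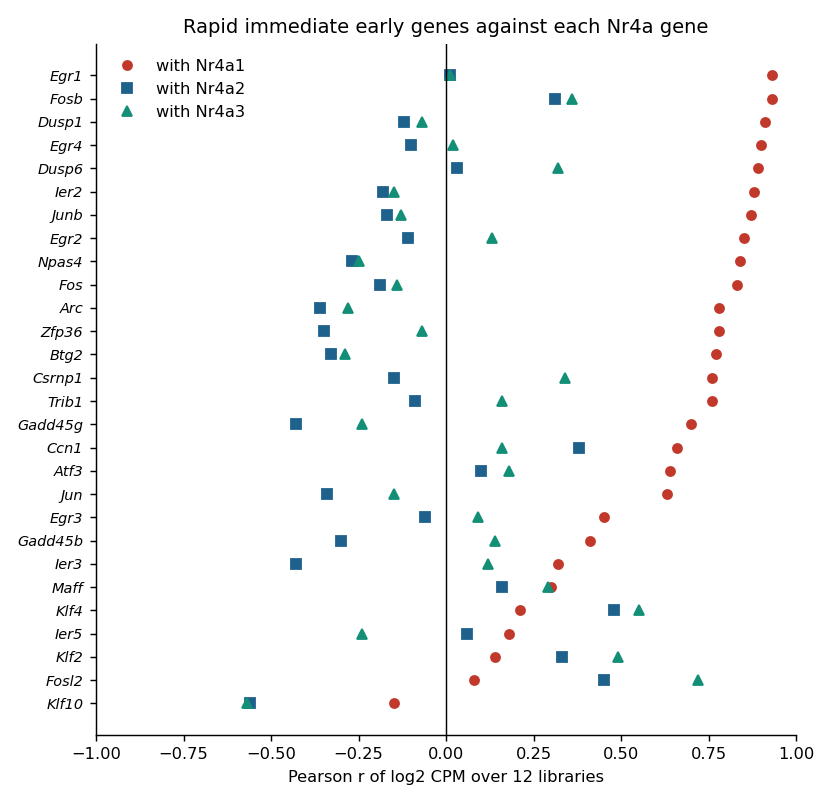
Pearson r of log2 CPM over 12 libraries (x axis) between each of 28 rapid immediate early genes (y axis, sorted by r with Nr4a1) and Nr4a1, Nr4a2 or Nr4a3 (symbols). Values with Nr4a1 reach 0.93 for Egr1 and Fosb and are positive for 27 genes, while those with Nr4a2 and Nr4a3 lie on both sides of 0, and Fosl2 has its highest value, 0.72, with Nr4a3.

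Against Control, 24 of these 28 genes were higher for the mean of the stimulated groups, with a median log2 fold change of 0.22, beside 0 over all tested genes. None passed the adjusted threshold, and in 9 of them all stimulated libraries were above all Control libraries, a pattern seen in 0.549% of all genes. The synaptic regulator Arc averaged 258, 270 and 228 CPM in STET, STET_S100 and STET_S200, against 96.7 CPM in Control, and the neuronal factor Npas4 averaged 210, 206 and 162 CPM, against 63.8 CPM in Control. A few early genes lay below Control with Nr4a2 and Nr4a3. The AP-1 member Fosl2 averaged 161, 164 and 147 CPM in the stimulated groups, against 177 CPM in Control, with a log2 fold change of -0.17 ± 0.09 (SE). Its r was 0.72 with Nr4a3, 0.45 with Nr4a2 and 0.08 with Nr4a1. Klf4, a Krüppel-like factor, had -0.14 ± 0.10 (SE) and r of 0.55 with Nr4a3 and 0.48 with Nr4a2. Besides these, Klf2 (-0.13) and Maff (-0.02) were the others below 0.

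Of 19 other activity-regulated genes, 15 were higher for the mean of the stimulated groups, none passed, and the median log2 fold change was 0.08. Inhba, the activin subunit, had 0.39 ± 0.34 and the G protein regulator Rgs2 0.32 ± 0.1, while the prohormone convertase Pcsk1 had -0.20 ± 0.06 and the clock gene Per1 -0.10 ± 0.05 (SE). Over all 12 libraries, r with Nr4a2 was 0.70 for Per1 and 0.46 for Pcsk1, and r with Nr4a3 was 0.52 and 0.54. Per1 also had a positive r with Nr4a1, 0.46, whereas Pcsk1 had -0.41. Both genes were named for low levels against Control, the contrast that chose the members, so these r are partly built in. After removal of group means, the median r of the 19 genes was 0.02 with Nr4a2 and 0.28 with Nr4a3, with 10 and 17 positive.

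Genes that act with or upstream of the family had list medians within 0.02 of 0 for the mean of the stimulated groups. None passed the threshold in any list. Of the 3 retinoid X receptors, the heterodimer partners, 1 was higher and the median log2 fold change for the mean of the stimulated groups was -0.01, with Rxra at -0.01 ± 0.04, Rxrb at -0.04 ± 0.04 and Rxrg at 0.06 ± 0.09 (SE). Of 31 other nuclear receptors tested out of 33 listed, 15 were higher and 16 lower, with a median of -0.01. Rarg (0.21) and Rara (0.11), retinoic acid receptors, were the highest, and Ppara (-0.23) and the thyroid hormone receptor Thrb (-0.14) the lowest of those above the level used for naming. The wider receptor superfamily thus showed no common direction for that mean.

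Of 18 transcription factors and coactivators known to act on Nr4a promoters, 7 were higher and 11 lower, with a median of -0.01. Atf1, a CREB relative, had 0.09 and the CREB coactivator Crtc3 0.06, against -0.14 for Mef2c and -0.09 for Crtc1. Atf1 also had an r of -0.82 with Nr4a2, the most negative of its list. Of 23 kinases and calcineurin subunits 9 were higher, with a median of -0.02, from Mapk7 (0.08) and the calcineurin subunit Ppp3ca (0.06) to the ERK gene Mapk3 (-0.11) and Rps6ka2 (-0.11). By group, 5 were higher in STET, 7 in STET_S100 and 11 in STET_S200, with medians of -0.03, -0.01 and -0.01. Of 16 co-regulators of nuclear receptors 7 were higher, with a median of 0. The histone deacetylases Hdac9 (-0.13) and Hdac5 (-0.07) were the lowest and had r of 0.60 and 0.62 with Nr4a2, while Hdac1 had a log2 fold change of 0.04. These r, like that of Atf1, are over all 12 libraries and include the contrast with Control that chose Nr4a2.

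Known outputs of the family gave no common direction for the mean of the stimulated groups either. Chaperones of the endoplasmic reticulum, among which Nr4a targets have been described in the mouse hippocampus, had 9 of 16 genes higher, with a median of 0. By group, 13 were higher in STET, 10 in STET_S100 and 7 in STET_S200, with medians of 0.03, 0.02 and -0.02. For the mean, the extremes were as follows. Sdf2l1 (0.19) and Dnajb9 (0.06) were the highest and Creld2 (-0.08) and Hyou1 (-0.05) the lowest. Of 9 genes of the dopaminergic programme that depends on Nr4a2 in the midbrain, 6 had enough reads to be tested, and 2 of them were higher. Slc6a3, the dopamine transporter, was lowest at -0.43 ± 0.42 (SE), from few reads, with group means of only 0.169 to 0.257 CPM. Of the genes above the level used for naming, Ret (-0.14) and Aldh1a1 (-0.06) were lowest, and Ddc (0.04) and the vesicular transporter Slc18a2 (0.04) highest.

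Nr4a2 also marks neurons of the claustrum, the cortical subplate and the subiculum, the last of which adjoins CA1, so their markers are given beside it. Of 10 claustrum and subplate markers 2 were higher for the mean of the stimulated groups, with a median log2 fold change of -0.09, which ran over -0.16 to 0.03 under 24 other settings. Their summed level was 243 to 261 CPM in STET, 254 to 263 in STET_S100 and 237 to 275 in STET_S200, against 254 to 298 CPM in Control. The subplate genes Nxph4 (-0.58 ± 0.41) and Ccn2 (-0.41 ± 0.43) had the lowest values, with wide errors (SE). Nxph4 ran over 0.777 to 2.81 CPM in stimulated and 1.39 to 4.12 CPM in Control libraries. The median r of the list was 0.42 with Nr4a2, -0.14 with Nr4a1 and -0.16 with Nr4a3. Of the 10 markers, 8 had a positive r with Nr4a2. Oprk1 went the other way, with 0.07 ± 0.14 (SE) and the lowest r of the list, -0.35. The r over all 12 libraries, here and for the subiculum below, include the contrast with Control that chose Nr4a2. After removal of group means, the median r of the list was 0.32 with Nr4a2, -0.02 with Nr4a1 and -0.24 with Nr4a3. Of the 10 markers, 6 were then positive with Nr4a2.

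Of 7 subiculum markers 2 were higher, with a median of -0.15. Summed levels were 257 to 291 CPM in STET, 247 to 264 in STET_S100 and 233 to 290 in STET_S200, against 263 to 302 CPM in Control. The vesicular glutamate transporter Slc17a6 had -0.44 ± 0.26 and fibronectin, Fn1, -0.37 ± 0.17 (SE), with r of 0.60 and 0.74 with Nr4a2. Of the 7 markers, 5 had a positive r with Nr4a2. Gpr101 went the other way, with 0.17 ± 0.11 (SE) and the lowest r of the list, -0.37. The median r of the subiculum list was 0.52 with Nr4a2 and -0.05 with each of the other members. After removal of group means it was 0.46 with Nr4a2, 0.04 with Nr4a1 and -0.32 with Nr4a3, and 6 of 7 markers were positive with Nr4a2. Over the 7 libraries without peripheral-tissue RNA, group means left in, the median r with Nr4a2 was 0 for the subiculum list. That of the claustrum and subplate list was 0.37. All of these markers were detected in every group, and their part in the level of Nr4a2 was not tested.

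**Figure D5:**
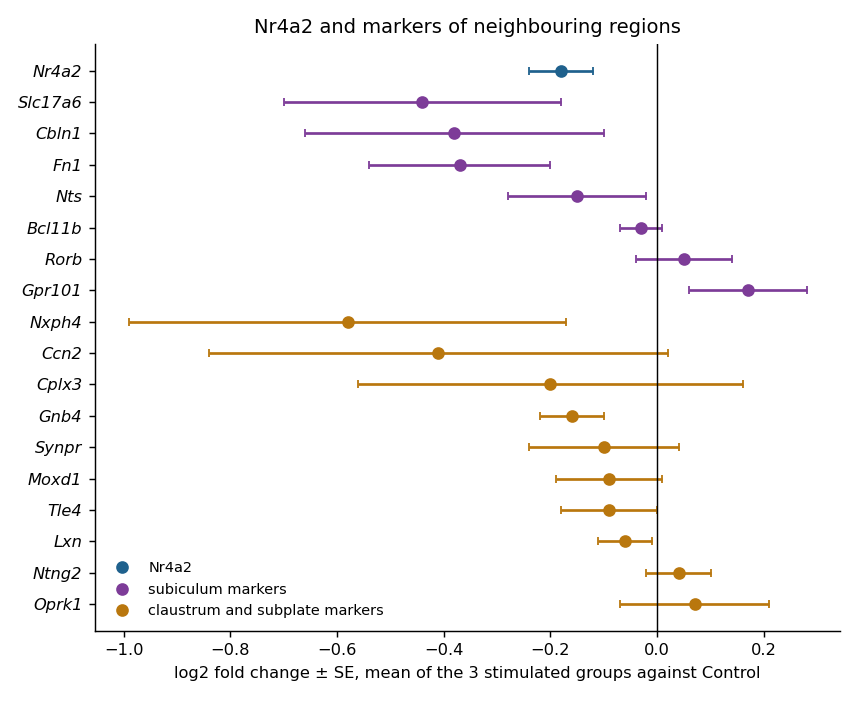
Log2 fold change ± SE against Control for the 3 stimulated groups averaged (x axis) for Nr4a2 (top), 7 subiculum markers and 10 claustrum and subplate markers (y axis, sorted within each list). Nr4a2 stands at -0.18 with a short error bar, while marker values run from -0.58 for Nxph4 to 0.17 for Gpr101.

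CA1 pyramidal markers summed to 1068 to 1253 CPM in STET, 1109 to 1145 in STET_S100 and 1143 to 1287 in STET_S200, against 1073 to 1251 CPM in Control, and 4 of 8 were higher. Microglial markers were lower in 12 of 12, with a median of -0.10 and sums of 319 to 347 CPM in STET, 300 to 348 in STET_S100 and 285 to 333 in STET_S200, against 337 to 354 CPM in Control. Microglia and macrophages express Nr4a1 as well. The median r of the microglial list over all 12 libraries was 0.28 with Nr4a2, -0.25 with Nr4a1 and 0.07 with Nr4a3. After removal of group means it was -0.07, -0.25 and -0.13 in that order. Of 8 oligodendrocyte markers 3 were higher. Their median r with Nr4a2 was 0.30, or 0.49 after removal of group means, and -0.34 over the 7 libraries without peripheral-tissue RNA. The part of these cell types in the members' levels was not tested.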

How the data were processed

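Read counts per Ensembl gene ID were deposited by the authors as whole numbers without scaling, 1 column per library, for 12 libraries of directional poly(A) RNA with paired-end reads of 150 bases, per the labels' protocols. STAR 2.7.1a and HTSeq 0.11.2 appear in the submitters' processing notes, beside Trimmomatic 0.39, limma and R 4.0.2. The build, annotation, strand of counting and settings were not given in the sources used here. A symbol was found for 55144 IDs. Lengths and gene coordinates come from GENCODE M21 (55230 IDs, 99.6%), and promoters from RefSeq.

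Counts were scaled by TMM, filtered with filterByExpr (minimum count 10, minimum total 15) and fitted with edgeR 4.0.16 (R 4.3.3), quasi-likelihood and robust, with 1 coefficient per group. P-values were adjusted by Benjamini-Hochberg over 19492 genes with a threshold of 0.05. The common biological coefficient of variation was 8.25%. CPM are TMM-scaled. A gene was called not overlapping when every library of a group lay beyond every library of the other. The fit and the permutation were tested on simulated data.

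Members and gene lists were chosen with earlier results of these data known. Genes were named by rule: the 3 members, the 5 most and 3 least correlated genes of each among genes averaging at least 1 on the log2 CPM scale and without provisional names, the 2 highest and 2 lowest genes of each pathway list averaging at least 0 on that scale, Arc, Npas4, Fos and Egr1, and up to 3 markers of each cell type. Klf10, Klf2, Maff, Slc6a3 and Fn1, with the r of Atf1, Hdac5, Hdac9 and Per1, were singled out after their values were seen. Correlations within groups were tested by all 1296 arrangements of libraries within groups rather than by random draws.

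Alternatives covered scaling (RLE, upper quartile, none), filters, DESeq2 1.42.0, limma-voom 3.58.1, no robust dispersion, the compared groups alone, a replicate block and leaving out each library. A term for the 5 libraries with Fabp4 above 1 CPM, a choroid plexus covariate and a fit of the other 7 libraries were added after seeing the data. Reads are not independent molecules. Since the groups share mice, p-values that treat libraries as independent are approximate. Some genes that the naming rule or the lists hold are not reported here by name.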

Additional observations from a re-analysis of the deposited data

How the results depend on the processing

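Of 297 values of the members against Control under other settings, 294 kept their direction within the spread. The others were Nr4a2 over 7 libraries without peripheral-tissue RNA, at -0.12 in STET and -0.11 in STET_S200, and Nr4a3 in STET, whose range on leaving out a library was -0.2 to 0.01. The cause of these shifts was not tested. Spread here is the pooled SD of libraries within the compared groups, which is a wide margin for Nr4a1. In STET_S100 the Nr4a1 values of 0.17 and 0.66 on leaving out a library count as kept, beside 0.44. Nr4a2 for the mean of the stimulated groups counts as kept at -0.09 over 7 libraries, beside -0.18.

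Between stimulated groups 208 of 225 values kept their sign, and the smallest adjusted p was 0.891. For STET_S100 against STET, Nr4a1 was -0.05 with limma-voom, -0.02 with the replicate block, -0.01 with the peripheral-tissue term and -0.26 to 0.23 on leaving out a library. Nr4a2 was -0.01 to 0.1 and Nr4a3 -0.21 to 0.01 on leaving out a library, and Nr4a3 was 0.03 over 7 libraries. For STET_S200 against STET, Nr4a2 was 0.02 over 7 libraries and -0.11 to 0.03 on leaving out a library. For STET_S200 against STET_S100, Nr4a1 was -0.47 to 0.01 and Nr4a3 -0.1 to 0.12 on leaving out a library, and Nr4a3 was -0.0043 without scaling, -0.0011 without a filter and -0.16 over 7 libraries. The causes were not tested.

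Counts of genes called, 0 in all 7 comparisons of the edgeR fit, moved as follows. Without a filter they were 16, 42 and 69 for STET, STET_S100 and STET_S200 against Control, 52 for the mean, 22 for STET_S100 against STET, 34 for STET_S200 against STET and 98 for STET_S200 against STET_S100. With DESeq2 they were 1, 3, 4, 7, 1, 16 and 5 in that order. With the peripheral-tissue term they were 2 in STET, 1 in STET_S200 and 4 for the mean against Control, and 1 each in STET_S100 and STET_S200 against STET. Over 7 libraries 4 genes were called for the mean, and with the compared groups alone 1 in STET_S100 against Control. Leaving out a library gave 0 to 1 in STET_S100 and 0 to 2 in STET_S200 against Control, 0 to 1 for the mean, 0 to 1 in STET_S100 against STET and 0 to 8 in STET_S200 against STET_S100.

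Within groups, 6 of these 7 libraries had a partner of their own group. Over these 6, r was -0.78 for Nr4a1 and Nr4a2 and -0.83 for Nr4a2 and Nr4a3. Each group held a single pair of them, so these values rest on too few differences for their sign to be read. Leaving out a library from all 12 gave r of -0.24 to 0.49 for Nr4a2 and Nr4a3.

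Whether equal replicate numbers mark shared mice could not be decided from the deviations of libraries from their group means. Of 18 same-numbered pairs 8 had a correlation of deviations over 0.1 (range -0.368 to 0.48). The median was 0.0281 for equal numbers and -0.0222 for other numbers, and 6 of 12 libraries correlated best with their own number. With the replicate block no gene was called in any comparison, and Nr4a2 for the mean against Control was -0.18. Depth did not limit the members, which had 3503 to 9437 reads per library.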
